A study of Mus musculus with 12 samples.

Results

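The genes described here are 52 genes of DNA replication, cyclins and their kinases, and mitosis. They were taken by symbol from a set list of replication, cyclin, kinase and mitosis genes, out of 24015 gene rows in the count data. All 52 passed the filter on low counts, which left 14356 genes in the tests. By their main role, 25 were treated as S-phase genes, 9 as genes of G1/S control and 18 as mitosis genes.

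RNA was sequenced from 12 libraries of mouse embryoid bodies, the floating aggregates in which embryonic stem cells begin to differentiate. There were 4 groups of 3 libraries: Trim33-deficient bodies on day 2, control bodies on day 2, Trim33-deficient bodies on day 2.5 and control bodies on day 2.5. The series looked for genes whose expression differs between Trim33-deficient and control bodies. Trim33 is a chromatin-associated protein that takes part in signalling by the TGF-beta family. Every line, controls included, came from embryos of outbred mice that carried the Trim33-flox allele on both chromosomes together with the UbcCreERT2 transgene, in which a ubiquitin C promoter drives a Cre recombinase that tamoxifen switches on. The cells were at passage 8 to 10 and were grown in LIF and 2i with no feeder layer before the bodies were formed. Loss of Trim33 was induced on day 1 with 4OH-Tamoxifen. The labels call the control genotype wildtype and do not say whether control bodies received the drug. They speak of independent pairs without saying how the pairs were made, so the p-values below measure the spread between these libraries and no more.

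Cells copy their DNA in S phase and part the copies in mitosis. Before S phase the origin recognition complex, with Cdc6 and Cdt1, loads the MCM helicase onto chromatin. Cyclin-dependent kinases then activate it together with Mcm10 and the GINS complex, and DNA polymerases follow the opened fork. Cyclins D and E with their kinases drive entry into S phase, where E2F factors switch on the replication genes once the retinoblastoma family lets go of them. Cyclin B with Cdk1 drives mitosis, and the late genes are held under the MuvB complex, which reads the CHR element of their promoters, and under NF-Y, which reads the CCAAT box. Mouse embryonic stem cells are known for fast cycles with a short G1 phase.

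Promoters of 300 bases, 250 before and 50 after the start site, came from RefSeq on build GRCm38.p6, and 42 of the 52 members matched with 48 promoters. Aurkb, Ccna2, Ccnd1, Ccnd2, Ccne2, Foxm1, Gins1, Gins2, Mcm4 and Pole had no entry. The E2F type was searched as TTTCCCGC, TTTCGCGC, TTTGCCGC or TTTGGCGC, the CHR type as TTTGAA and the NF-Y type as CCAAT, all on both strands. The E2F type was found in 11 of 25 S-phase promoters (44%), in 3 of 8 promoters of G1/S control genes (37.5%) and in 1 of 15 mitosis promoters (6.67%), against 2.27% of all 32851 promoters in the table. The CHR type was found in 2 of 25 S-phase promoters (8%), in 1 of 8 promoters of G1/S control genes (12.5%) and in 11 of 15 mitosis promoters (73.3%), against 17.9% of all. CCAAT was in 14 S-phase promoters (56%), in 5 of G1/S control (62.5%) and in 14 of mitosis (93.3%), against 37.4% of all. These are matches of letters and not sites shown to be bound.

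**Figure D1:**
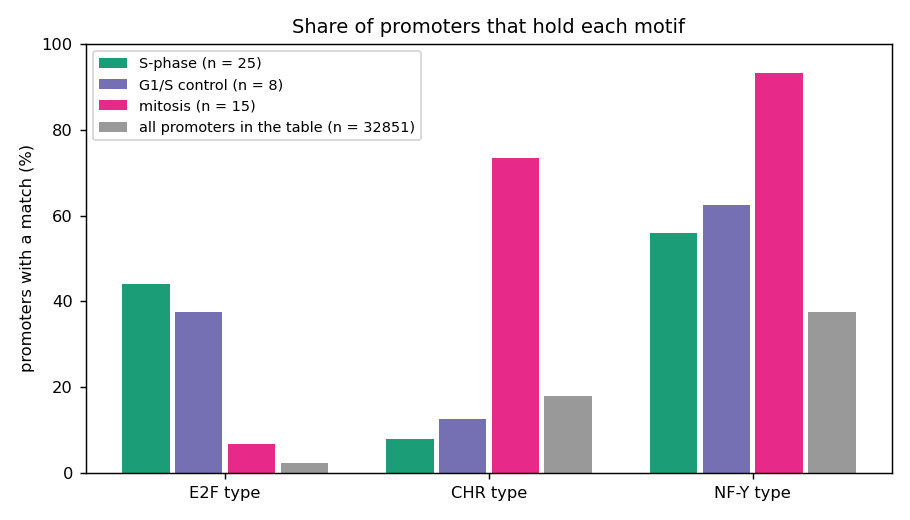
Bars give the percentage of promoters that hold each motif, among S-phase, G1/S control and mitosis members and among all 32851 promoters in the table. The E2F type stands at 44% in S-phase promoters and 6.67% in mitosis promoters, and the CHR type at 8% in S-phase promoters and 73.3% in mitosis promoters.

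The promoters shown are those of the S-phase members with an E2F-type match and of the mitosis members with a CHR-type match that had the smallest adjusted p on day 2.5, 2 of each. Capitals mark the E2F-type, CHR-type and CCAAT matches on either strand, and lower case is the rest. The sequences are given 5′ to 3′ on the strand of the gene.
Mcm7, chr5:138171834-138172133, minus strand: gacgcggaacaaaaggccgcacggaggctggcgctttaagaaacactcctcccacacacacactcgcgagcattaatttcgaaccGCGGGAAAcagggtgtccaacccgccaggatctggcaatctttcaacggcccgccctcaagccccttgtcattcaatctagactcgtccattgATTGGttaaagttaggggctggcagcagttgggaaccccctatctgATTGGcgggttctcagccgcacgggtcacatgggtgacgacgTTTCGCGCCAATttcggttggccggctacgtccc
Mcm6, chr1:128359656-128359955, minus strand: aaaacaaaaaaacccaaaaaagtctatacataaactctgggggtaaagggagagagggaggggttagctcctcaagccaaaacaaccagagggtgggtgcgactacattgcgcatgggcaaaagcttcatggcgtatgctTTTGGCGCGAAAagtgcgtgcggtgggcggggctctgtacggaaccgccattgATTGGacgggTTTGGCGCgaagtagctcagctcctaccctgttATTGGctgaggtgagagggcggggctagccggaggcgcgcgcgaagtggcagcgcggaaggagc
Bub1b, chr2:118597961-118598260, plus strand: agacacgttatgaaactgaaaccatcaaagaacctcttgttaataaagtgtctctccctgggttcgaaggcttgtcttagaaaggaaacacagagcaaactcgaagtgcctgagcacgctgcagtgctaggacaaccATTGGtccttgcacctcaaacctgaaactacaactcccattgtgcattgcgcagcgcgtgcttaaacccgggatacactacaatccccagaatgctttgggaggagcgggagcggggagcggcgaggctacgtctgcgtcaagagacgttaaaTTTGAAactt
Plk1, chr7:122159185-122159484, plus strand: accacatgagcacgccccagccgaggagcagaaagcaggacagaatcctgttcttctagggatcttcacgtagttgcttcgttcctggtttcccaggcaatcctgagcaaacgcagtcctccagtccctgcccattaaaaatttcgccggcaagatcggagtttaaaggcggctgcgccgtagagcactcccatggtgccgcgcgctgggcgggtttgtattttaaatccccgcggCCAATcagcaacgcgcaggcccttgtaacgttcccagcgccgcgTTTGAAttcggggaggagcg
Mcm7 holds an E2F-type match 165 bases before its start site and another 16 bases after it, which shares a base with a CCAAT match. Mcm6 holds 3 E2F-type matches, of which those that begin 110 and 106 bases before the start site overlap. In Bub1b the CHR-type match begins 40 bases after the start site, and the CCAAT match, here read on the other strand, begins 113 bases before it. In Plk1 the CHR-type match begins 30 bases after the start site and the CCAAT match 14 bases before it.

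Libraries held 10066338 to 16529627 counts assigned to genes. Levels below are in CPM, which are counts scaled to library size with TMM factors, and they compare libraries, not genes of different length. In parentheses stand the log2 ratio of Trim33-deficient over control bodies (or of day 2.5 over day 2) with its standard error (SE) and the adjusted p. Trim33 itself stood at 60.5, 69.6 and 68.04 CPM in Trim33-deficient bodies, against 275, 261 and 277 CPM in control bodies on day 2 (log2 ratio -2.03 ± 0.06 SE, adjusted p = 1e-11), and at 54.4, 57.6 and 62.8 CPM in Trim33-deficient bodies, against 264, 247 and 239 CPM in control bodies on day 2.5 (log2 ratio -2.10 ± 0.06 SE, adjusted p = 6.35e-12, quasi-likelihood test of edgeR, Benjamini-Hochberg adjusted). No library overlapped the other genotype. Of all counts, Rn45s, the precursor of ribosomal RNA, held 7.87% in Trim33-deficient day 2 replicate 1 and 11.95% in control day 2.5 replicate 2, against 0.609 to 1.67% in the other libraries. The summed level of 6 pluripotent and epiblast markers was 2850.1 to 4062 CPM in Trim33-deficient libraries and 4321 to 5232 CPM in control libraries, led by Dnmt3b at 1635 to 3694 CPM over all 12. The sum of 8 fibroblast markers was 22.8 to 29.5 CPM in Trim33-deficient libraries and 30.4 to 44.6 CPM in control libraries, with Postn at 0 in 11 libraries and Lum at 0 in 7. The sum of 5 early mesendoderm markers was 13.2 to 19.7 CPM in Trim33-deficient libraries and 16.3 to 33.2 CPM in control libraries. On day 2.5 alone it was 14.6, 13.2 and 19.7 CPM in Trim33-deficient bodies, against 33.2, 28.1 and 24.1 CPM in control bodies, with no overlap. The first 2 sums did not overlap between the genotypes, but their members did not all lie on 1 side. Nanog was at 68.7, 77.1 and 81.5 CPM in Trim33-deficient bodies, against 163, 209 and 175 CPM in control bodies on day 2.5. Otx2, Fgf5 and Dnmt3b were also lower in every Trim33-deficient library of that day than in any control library of it. Sox2 was at 201, 194 and 224 CPM in Trim33-deficient bodies, against 162, 163 and 164 CPM in control bodies on day 2.5, all Trim33-deficient libraries above all control libraries, and Pou5f1 overlapped on both days. Col3a1, a fibroblast marker, was at 2.18, 2.63 and 2.86 CPM in Trim33-deficient bodies, against 1.05, 0.80 and 1.70 CPM in control bodies on day 2.5, again higher in every Trim33-deficient library. The fibroblast markers Col1a1, Col1a2 and Thy1 were lower in every Trim33-deficient library on day 2.5, and Dcn and Pdgfrb overlapped. Sox17, among the mesendoderm markers, was at 1.09, 0.732 and 1.25 CPM in Trim33-deficient bodies, against 0.394, 0.267 and 0.189 CPM in control bodies on that day, with no overlap. Its control counts were only 6, 3 and 3. Eomes went the other way on day 2.5, at 9.38, 9.80 and 14.0 CPM in Trim33-deficient bodies, against 26.4, 21.7 and 18.3 CPM in control bodies. T and Mixl1 were likewise lower in every Trim33-deficient library of that day, and Foxa2 overlapped. The part of these markers in the results below was not tested.

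Nearly all members that passed the test were lower in Trim33-deficient bodies than in control bodies, on both days and by modest amounts. Between the genotypes, fell and rose mean below and above control of the same day, and not a change over time. On day 2, 1 day after induction, 19 of the 52 members fell in Trim33-deficient bodies and 33 did not pass at an adjusted p under 0.05 (quasi-likelihood test of edgeR, Benjamini-Hochberg adjusted over all 14356 genes), while 3.90% of all genes tested fell and 5.94% rose. No member rose, with 0 members above control at an unadjusted p under 0.05 and 0 in DESeq2. On day 2.5, 35 members fell, 2 rose and 15 did not pass, in a comparison where 20.7% of all genes fell and 22.0% rose. All 19 members that fell on day 2 also fell on day 2.5, 16 more passed on day 2.5, and 15 passed on neither day. The share of all genes that fell on both days was not worked out. The tests of both days pool the spread of all groups, so the later falls are not an independent repeat. In bulk RNA, fewer cells in a phase and less RNA per cell in that phase cannot be told apart.

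The differences were small, and so was the spread between libraries of a group. Members that fell lay 9.42 to 31.7% below control on day 2, with a median of 16.0%, and 8.03 to 38.9% below control on day 2.5, with a median of 17.7%. The median log2 fold change over all 52 members was -0.13 on day 2, against -0.0049 over all genes tested, and -0.21 on day 2.5, against -0.0096 over all genes. The SD of log2 CPM within a group had a median of 0.063 over the members and 0.129 over all genes tested. The groups did not overlap for 32 members on day 2 and for 40 on day 2.5. The share of all genes tested without overlap was not worked out, so these counts cannot be called particular to the members. Without Trim33-deficient day 2 replicate 1, the library of few counts and much Rn45s, 8 members fell on day 2, and without that library and control day 2.5 replicate 2, 13 fell. Without control day 2 replicate 3 the number was 11, and without Trim33-deficient day 2 replicate 2 it was 12. On day 2.5 it was 26 to 35 whichever single library was left out.

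**Figure D2:**
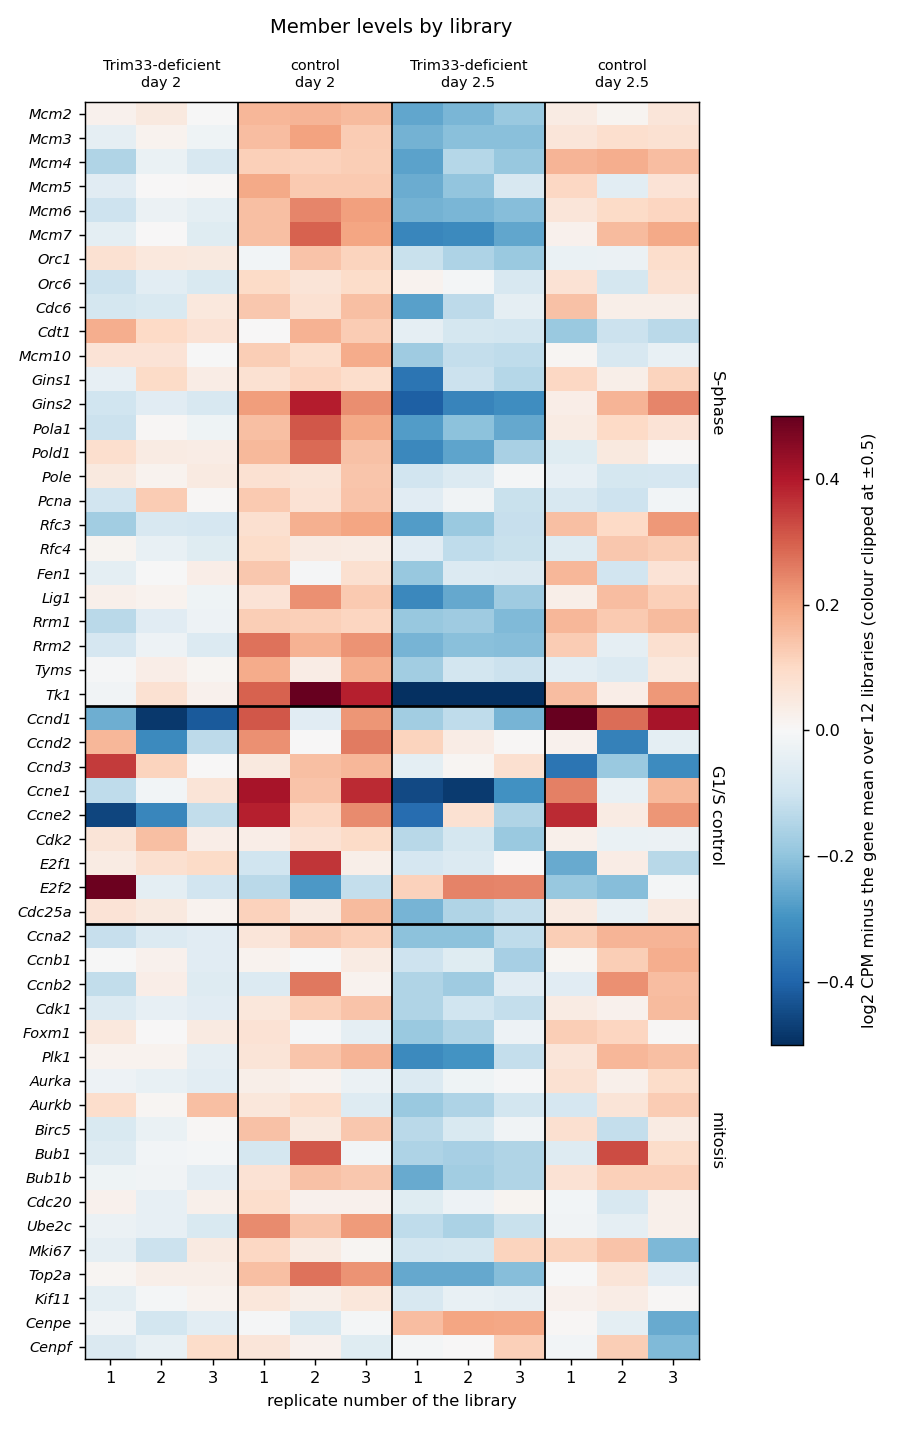
Rows are the 52 members grouped as S-phase, G1/S control and mitosis genes, and columns are the 12 libraries. Colour gives log2 CPM minus the mean of that gene over the 12 libraries, clipped at both ends of the scale. Trim33-deficient libraries of day 2.5 are low across most S-phase rows, Tk1 among them, and high in the row of Cenpe.

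**Figure D3:**
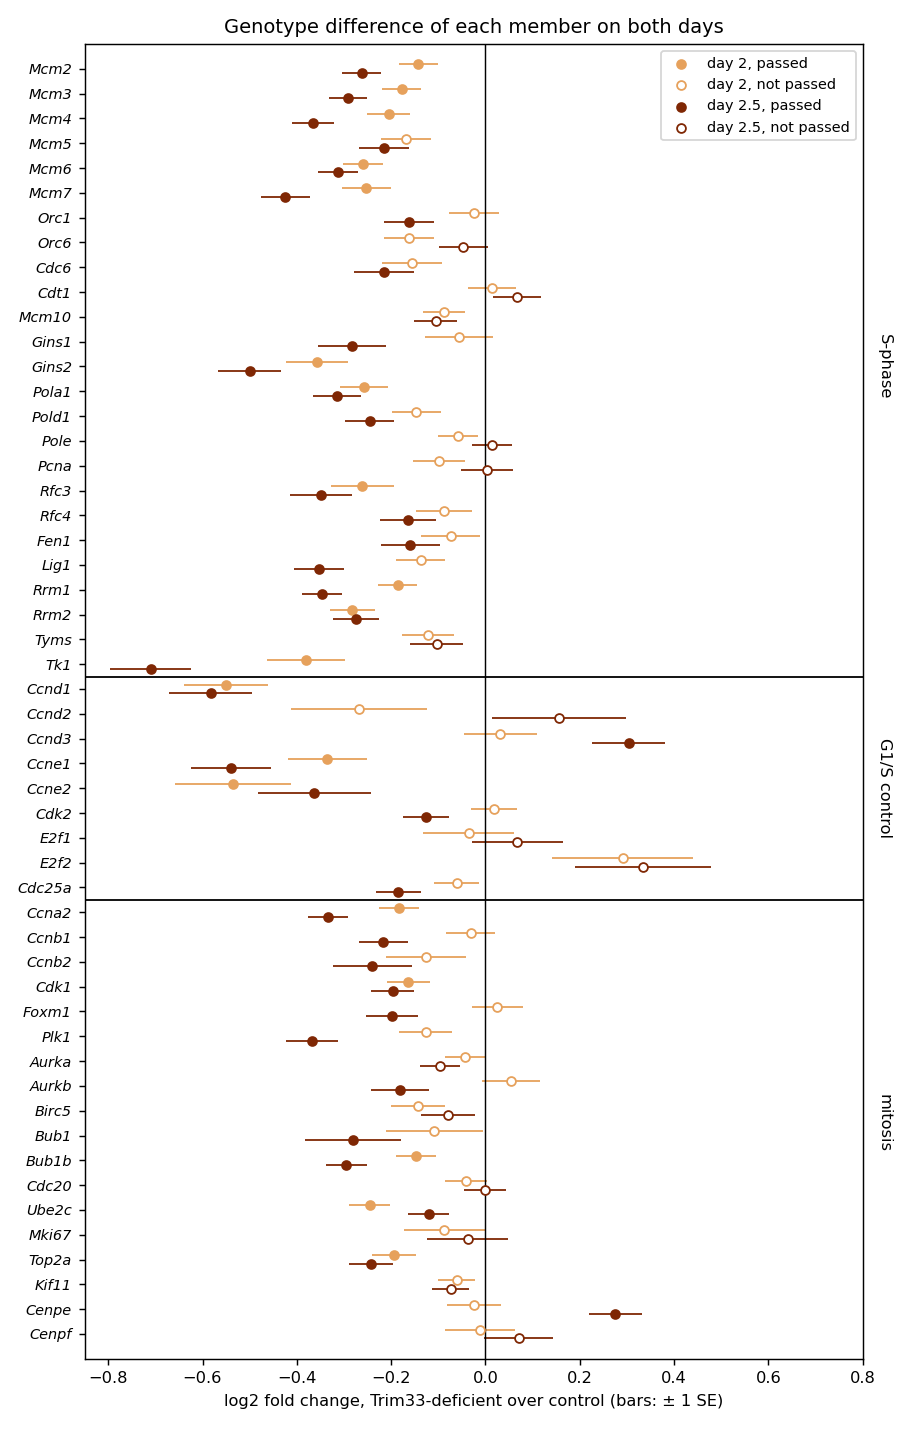
Points give the log2 fold change of each member, Trim33-deficient over control, on day 2 (light) and day 2.5 (dark), with bars of 1 SE. Filled points passed the test. S-phase members reach -0.71 (Tk1), and Cenpe and Ccnd3 are the 2 filled points right of 0.

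All subunits of the MCM helicase lay below control on both days. Of the 6, 5 fell on day 2 and 6 on day 2.5, with log2 fold changes of -0.26 to -0.14 on day 2 and of -0.42 to -0.22 on day 2.5. Mcm7 stood at 366, 379 and 363 CPM in Trim33-deficient bodies, against 420.4, 465 and 435 CPM in control bodies on day 2 (log2 ratio -0.25 ± 0.05 SE, adjusted p = 0.00803). On day 2.5 it was at 302, 304 and 317 CPM in Trim33-deficient bodies, against 385, 423 and 432 CPM in control bodies (log2 ratio -0.42 ± 0.05 SE, adjusted p = 1.44e-05). Every Trim33-deficient library lay below every control library on both days. Mcm6 had 506, 532 and 525 CPM in Trim33-deficient bodies, against 603, 643 and 627 CPM in control bodies on day 2 (log2 ratio -0.26 ± 0.04 SE, adjusted p = 0.00185). Its day 2.5 values were 461, 464 and 469.7 CPM in Trim33-deficient bodies, against 566, 581 and 585 CPM in control bodies (log2 ratio -0.31 ± 0.04 SE, adjusted p = 3.39e-05). Mcm6 carried the smallest adjusted p of any member on day 2, again with no overlap.

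Among the other subunits, Mcm4 had 399, 432 and 418 CPM in Trim33-deficient bodies, against 479.8, 478 and 482 CPM in control bodies on day 2 (log2 ratio -0.21 ± 0.04 SE, adjusted p = 0.0109). For day 2.5 the counts gave Mcm4 367, 401 and 388 CPM in Trim33-deficient bodies, against 497, 501 and 492 CPM in control bodies (log2 ratio -0.37 ± 0.04 SE, adjusted p = 1.37e-05). The 3 Trim33-deficient libraries of Mcm4 lay below the 3 control libraries on both days, and the control libraries lay close together. Mcm3 had 644, 673 and 655 CPM in Trim33-deficient bodies, against 739.9, 765 and 727 CPM in control bodies on day 2 (log2 ratio -0.18 ± 0.04 SE, adjusted p = 0.0142). By day 2.5 the values of Mcm3 were 565, 576 and 575 CPM in Trim33-deficient bodies, against 694, 705 and 701 CPM in control bodies (log2 ratio -0.29 ± 0.04 SE, adjusted p = 4.9e-05). Neither day showed an overlap for Mcm3.

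Mcm2 had 733, 746 and 720.1 CPM in Trim33-deficient bodies, against 809.6, 812 and 807 CPM in control bodies on day 2 (log2 ratio -0.14 ± 0.04 SE, adjusted p = 0.0375). At day 2.5 Mcm2 was at 602, 616 and 635 CPM in Trim33-deficient bodies, against 743, 728 and 752 CPM in control bodies (log2 ratio -0.26 ± 0.04 SE, adjusted p = 0.000116). The day 2 call of Mcm2 was lost under 10 of 22 alternatives, with adjusted p up to 0.124, and its day 2.5 call was kept under all. Mcm5 had 642, 669 and 671 CPM in Trim33-deficient bodies, against 763, 732 and 733 CPM in control bodies on day 2 and did not pass (log2 ratio -0.17 ± 0.05 SE, adjusted p = 0.0569). It fell on day 2.5, with 564, 583 and 633 CPM in Trim33-deficient bodies, against 719, 645 and 701 CPM in control bodies (log2 ratio -0.22 ± 0.05 SE, adjusted p = 0.00405). The groups of Mcm5 did not overlap on either day, and on day 2.5 its nearest libraries were 633 CPM in Trim33-deficient bodies and 645 CPM in control bodies.

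The genes that load and wake the helicase were less uniform. Of the 4 licensing genes none passed on day 2, where 2 lay below control at an unadjusted p under 0.05 and 0 above, and Orc1 and Cdc6 fell on day 2.5. Such an unadjusted p was reached on day 2 by 3547 of all 14356 genes tested, in either direction. Cdc6, the loader of the helicase, had 71.9, 79.1 and 83.98 CPM in Trim33-deficient bodies, against 96.1, 88.5 and 88.5 CPM in control bodies on day 2.5 (log2 ratio -0.22 ± 0.06 SE, adjusted p = 0.0122). Orc1, the largest subunit of the origin recognition complex, had 103, 99.4 and 97.5 CPM in Trim33-deficient bodies, against 108, 109 and 118 CPM in control bodies on that day (log2 ratio -0.16 ± 0.05 SE, adjusted p = 0.0223). Cdt1, which loads the helicase with Cdc6, had 192, 187 and 186 CPM in Trim33-deficient bodies, against 175, 184 and 181 CPM in control bodies and did not pass (log2 ratio 0.07 ± 0.05 SE, adjusted p = 0.303). The 3 Trim33-deficient values of Cdt1 were all above the 3 control values, opposite to those of Cdc6 and Orc1.

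Orc6, another subunit of the origin complex, had 103, 107 and 105 CPM in Trim33-deficient bodies, against 119, 116 and 119 CPM in control bodies on day 2 (log2 ratio -0.16 ± 0.05 SE, adjusted p = 0.0618), with no overlap but no call, and its libraries overlapped on day 2.5 (-0.05 ± 0.05, adjusted p = 0.488). Gins2, a subunit of the GINS complex in the active helicase, showed the second largest fall among S-phase members on day 2. Its values were 61.7, 63.6 and 62.5 CPM in Trim33-deficient bodies, against 76.5, 86.7 and 77.6 CPM in control bodies on day 2 (log2 ratio -0.36 ± 0.07 SE, adjusted p = 0.00438). On the later day Gins2 was at 49.8, 52.6 and 53.3 CPM in Trim33-deficient bodies, against 67.7, 74.3 and 78.4 CPM in control bodies (log2 ratio -0.50 ± 0.07 SE, adjusted p = 2.99e-05). No Trim33-deficient library reached a control library. Its partner Gins1 fell on day 2.5 with 33.4, 39.9 and 38.9 CPM in Trim33-deficient bodies, against 46.1, 43.9 and 46.5 CPM in control bodies (log2 ratio -0.28 ± 0.07 SE, adjusted p = 0.00501), and Mcm10 did not pass on either day (-0.09 ± 0.04 on day 2 and -0.11 ± 0.04 on day 2.5 as log2 fold changes ± SE).

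The polymerases fell in part. Pola1, the catalytic subunit of the polymerase that starts new strands, had 154, 167 and 163 CPM in Trim33-deficient bodies, against 184, 206 and 189 CPM in control bodies on day 2 (log2 ratio -0.26 ± 0.05 SE, adjusted p = 0.00617). Pola1 on day 2.5 was at 137, 144 and 139 CPM in Trim33-deficient bodies, against 171, 178 and 174 CPM in control bodies (log2 ratio -0.31 ± 0.05 SE, adjusted p = 0.000155). Pold1, the catalytic subunit of the lagging-strand polymerase, fell on day 2.5 with 211, 219 and 235 CPM in Trim33-deficient bodies, against 252, 272 and 264 CPM in control bodies (log2 ratio -0.25 ± 0.05 SE, adjusted p = 0.0014). Pole, its leading-strand counterpart, had 217, 221 and 229.9 CPM in Trim33-deficient bodies, against 225, 218 and 218 CPM in control bodies on that day (log2 ratio 0.01 ± 0.04 SE, adjusted p = 0.816), and the Trim33-deficient and control libraries of Pole overlapped. The 95% interval of the Pole difference on day 2.5 was -0.08 to 0.11 on the log2 scale, and that of Pola1 was -0.43 to -0.20.

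Pcna, the sliding clamp, did not pass on either day. On day 2 its log2 ratio was -0.10 ± 0.06 (adjusted p = 0.293), beside -0.09 ± 0.06 (adjusted p = 0.393) for Rfc4, a subunit of the clamp loader. Pcna had 139, 143 and 134 CPM in Trim33-deficient bodies, against 137, 135 and 143 CPM in control bodies on day 2.5, with overlap and an interval of -0.13 to 0.13 (log2 ratio 0.00 ± 0.06 SE, adjusted p = 0.971). Rfc3, another subunit of the loader, had 39.9, 42.5 and 42.4 CPM in Trim33-deficient bodies, against 47.5, 50.8 and 51.5 CPM in control bodies on day 2 (log2 ratio -0.26 ± 0.07 SE, adjusted p = 0.0224). The later Rfc3 values were 37.1, 39.5 and 41.5 CPM in Trim33-deficient bodies, against 49.9, 48.2 and 52.3 CPM in control bodies (log2 ratio -0.35 ± 0.07 SE, adjusted p = 0.000564). Rfc3 fell on both days with no overlap, and Rfc4 fell on day 2.5 with 1 control library, 69.0 CPM, inside the range of the Trim33-deficient libraries (log2 ratio -0.16 ± 0.06 SE, adjusted p = 0.0347). The call of Rfc3 on day 2 was lost under 6 of 22 alternatives and that of Rfc4 on day 2.5 under 7 of 22.

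Of the genes that finish the lagging strand, Lig1, the ligase that seals its fragments, had 329.8, 328 and 319.8 CPM in Trim33-deficient bodies, against 339.8, 380.3 and 355 CPM in control bodies on day 2, with no overlap and no call (log2 ratio -0.14 ± 0.05 SE, adjusted p = 0.112). It fell on day 2.5, at 259.5, 272 and 287 CPM in Trim33-deficient bodies, against 331, 361 and 352 CPM in control bodies (log2 ratio -0.35 ± 0.05 SE, adjusted p = 8.13e-05). Fen1, the flap nuclease, passed narrowly on day 2.5 with overlapping libraries (log2 ratio -0.16 ± 0.06 SE, adjusted p = 0.049), and 14 of 22 alternatives ended that call.

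Nucleotide supply held the largest change of any member. Tk1, the thymidine kinase of the salvage pathway, had 22.2, 23.7 and 22.8 CPM in Trim33-deficient bodies, against 27.5, 32.6 and 29.4 CPM in control bodies on day 2 (log2 ratio -0.38 ± 0.08 SE, adjusted p = 0.0112). On day 2.5 Tk1 was at 15.7, 14.3 and 15.4 CPM in Trim33-deficient bodies, against 25.003, 23.01 and 26.1 CPM in control bodies (log2 ratio -0.71 ± 0.09 SE, adjusted p = 1.36e-05), or 38.9% below control. The highest Trim33-deficient library of day 2.5 lay well under the lowest control library. Rrm2, the small subunit of ribonucleotide reductase, had 249, 259.6 and 252 CPM in Trim33-deficient bodies, against 319, 298 and 309 CPM in control bodies on day 2 (log2 ratio -0.28 ± 0.05 SE, adjusted p = 0.0026). The day 2.5 level of Rrm2 was 225, 229 and 228 CPM in Trim33-deficient bodies, against 289, 256 and 279 CPM in control bodies (log2 ratio -0.27 ± 0.05 SE, adjusted p = 0.00031). Its fold change was of like size on both days.

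Rrm1, the large subunit of the same enzyme, had 334, 353 and 360.4 CPM in Trim33-deficient bodies, against 399.6, 398 and 395 CPM in control bodies on day 2 (log2 ratio -0.19 ± 0.04 SE, adjusted p = 0.0123). For Rrm1 day 2.5 gave 322, 325 and 315 CPM in Trim33-deficient bodies, against 412, 402 and 409.6 CPM in control bodies (log2 ratio -0.35 ± 0.04 SE, adjusted p = 1.16e-05), the smallest adjusted p of any member in that comparison. Tyms, the thymidylate synthase, did not pass on either day (-0.12 ± 0.06 on day 2 and -0.10 ± 0.06 on day 2.5), although the libraries of the genotypes did not overlap on either.

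In G1/S control the cyclins differed among themselves. Ccnd1, cyclin D1, had 87.2, 74.01 and 77.3 CPM in Trim33-deficient bodies, against 128, 99.4 and 120.4 CPM in control bodies on day 2 (log2 ratio -0.55 ± 0.09 SE, adjusted p = 0.0023), the largest fall of any member on that day. On day 2.5 it was at 91.7, 94.8 and 88.1 CPM in Trim33-deficient bodies, against 148, 125 and 138 CPM in control bodies (log2 ratio -0.58 ± 0.09 SE, adjusted p = 0.000116). Ccnd1 lay below control on both days with no overlap, although its control libraries spanned 99.4 to 128 CPM on day 2. Ccnd3, cyclin D3, had 109, 92.5 and 85.8 CPM in Trim33-deficient bodies, against 88.7, 95.04 and 96.1 CPM in control bodies on day 2, with overlap and no call (log2 ratio 0.03 ± 0.08 SE, adjusted p = 0.84). It was above control on day 2.5, with 82.8, 86.2 and 90.6 CPM in Trim33-deficient bodies, against 66.6, 75.3 and 68.8 CPM in control bodies (log2 ratio 0.30 ± 0.08 SE, adjusted p = 0.005). The Trim33-deficient level was no higher than on day 2, and the control level was lower. Ccnd3 is thus the D cyclin that was higher in Trim33-deficient bodies on day 2.5, and Ccnd2, at 6.66 to 10.1 CPM in all libraries, passed on neither day (-0.27 ± 0.14 on day 2 and 0.16 ± 0.14 on day 2.5).

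Both E cyclins, partners of Cdk2 at the entry to S phase, fell on both days. Ccne1 had 203, 220.0 and 232 CPM in Trim33-deficient bodies, against 295, 245 and 287 CPM in control bodies on day 2 (log2 ratio -0.34 ± 0.08 SE, adjusted p = 0.0241). The Ccne1 values of day 2.5 were 162, 159 and 180.1 CPM in Trim33-deficient bodies, against 264, 216 and 249 CPM in control bodies (log2 ratio -0.54 ± 0.08 SE, adjusted p = 0.000191). Ccne1 showed no overlap, and its control libraries were the more scattered ones, at 216 CPM in replicate 2 of day 2.5 against 264 and 249 CPM in replicates 1 and 3. Ccne2 had 22.6, 24.8 and 28.5 CPM in Trim33-deficient bodies, against 40.8, 33.4 and 36.7 CPM in control bodies on day 2 (log2 ratio -0.54 ± 0.12 SE, adjusted p = 0.0143). At day 2.5 Ccne2 was at 23.9, 32.8 and 28.03 CPM in Trim33-deficient bodies, against 40.3, 31.98 and 36.3 CPM in control bodies (log2 ratio -0.36 ± 0.12 SE, adjusted p = 0.0236). On day 2.5 the libraries of Ccne2 overlapped, and 4 of 22 alternatives ended its call on each day. The day 2 call of Ccne1 was also lost under 4 of 22, with adjusted p up to 0.101, and its day 2.5 call under none.

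Their kinase Cdk2 had 99.6, 103 and 96.5 CPM in Trim33-deficient bodies, against 112, 107 and 107 CPM in control bodies on day 2.5 and passed narrowly (log2 ratio -0.13 ± 0.05 SE, adjusted p = 0.0484), a call that 16 of 22 alternatives ended. Cdc25a, the phosphatase that activates the kinase, fell on day 2.5 with 164, 173 and 177 CPM in Trim33-deficient bodies, against 199, 187 and 198 CPM in control bodies (log2 ratio -0.18 ± 0.05 SE, adjusted p = 0.00526). The factors E2f1 and E2f2, activators of the replication genes, did not pass on either day. E2f2 had 9.82, 10.8 and 10.7 CPM in Trim33-deficient bodies, against 7.94, 7.82 and 9.004 CPM in control bodies on day 2.5 (log2 ratio 0.33 ± 0.14 SE, adjusted p = 0.0739). At these low levels the Trim33-deficient libraries of E2f2 all lay above the control libraries, against the direction of most S-phase members, and E2f1 overlapped on both days.

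**Figure D4:**
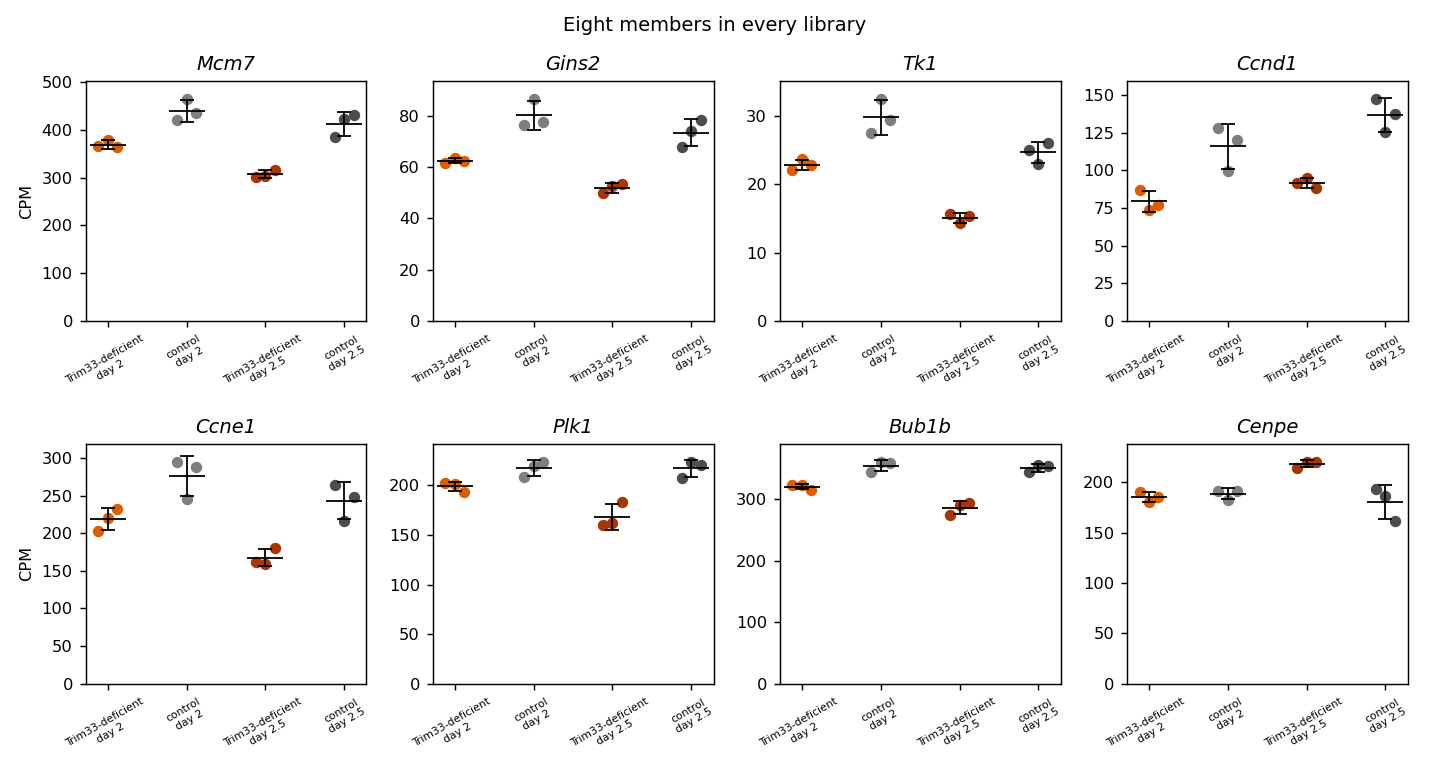
Points are CPM of 8 members in every library, and bars give the mean ± SD of the 3 libraries of a group. Mcm7, Gins2, Tk1, Ccnd1, Ccne1, Plk1 and Bub1b are lower in Trim33-deficient bodies on day 2.5, and Cenpe is higher there, at 215 to 221 CPM.

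Among the mitotic cyclins and their kinase, 2 of 5 members fell on day 2 and 5 of 5 on day 2.5. Ccna2, cyclin A, which serves both S phase and the entry to mitosis, had 340.5, 352 and 355 CPM in Trim33-deficient bodies, against 385, 405 and 400.4 CPM in control bodies on day 2 (log2 ratio -0.18 ± 0.04 SE, adjusted p = 0.0143). On day 2.5 Ccna2 had 320.2, 319.9 and 337 CPM in Trim33-deficient bodies, against 402, 415 and 415 CPM in control bodies (log2 ratio -0.33 ± 0.04 SE, adjusted p = 1.98e-05), the largest fall of this group. No library overlapped on either day. Cdk1, the kinase of mitosis, had 209, 217 and 214 CPM in Trim33-deficient bodies, against 239, 236 and 259 CPM in control bodies on day 2.5 (log2 ratio -0.20 ± 0.05 SE, adjusted p = 0.00262), and its day 2 call (log2 ratio -0.16 ± 0.05 SE, adjusted p = 0.0339) was lost under 10 of 22 alternatives. Ccnb1, Ccnb2 and Foxm1, 2 B cyclins and a factor that activates mitotic genes, fell on day 2.5 alone, by 0.20 to 0.24 on the log2 scale.

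Plk1, a kinase of mitotic entry and spindle assembly, showed the largest fall of any mitosis member on day 2.5. It had 202, 202 and 193 CPM in Trim33-deficient bodies, against 209, 219 and 224 CPM in control bodies on day 2, with no overlap and no call (log2 ratio -0.13 ± 0.06 SE, adjusted p = 0.166). The day 2.5 libraries gave Plk1 159.8, 162 and 184 CPM in Trim33-deficient bodies, against 208, 224 and 221 CPM in control bodies (log2 ratio -0.37 ± 0.06 SE, adjusted p = 8.92e-05). Trim33-deficient replicate 3 stood above its fellows but under all control libraries. Aurkb, an aurora kinase, was at 105, 107 and 112 CPM in Trim33-deficient bodies, against 112, 124 and 129.9 CPM in control bodies on day 2.5 (log2 ratio -0.18 ± 0.06 SE, adjusted p = 0.0262). That call was lost under 5 of 22 alternatives, 4 of them single day 2.5 libraries left out. Aurka (-0.10 ± 0.04, adjusted p = 0.073) and Birc5, survivin, a partner of Aurkb (-0.08 ± 0.06, adjusted p = 0.274), did not pass on day 2.5, although the libraries of Aurka did not overlap and lay below control.

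In the spindle checkpoint, Bub1b, which restrains the anaphase-promoting complex, had 322, 323 and 315 CPM in Trim33-deficient bodies, against 344, 361 and 359 CPM in control bodies on day 2 (log2 ratio -0.15 ± 0.04 SE, adjusted p = 0.0391). Bub1b was at 275, 290.0 and 294 CPM in Trim33-deficient bodies, against 344, 355 and 355 CPM in control bodies on day 2.5 (log2 ratio -0.30 ± 0.04 SE, adjusted p = 6.22e-05). The day 2 call of Bub1b was lost under 11 of 22 alternatives and the day 2.5 call under none. Bub1, a checkpoint kinase, passed on day 2.5 with 301, 298 and 301 CPM in Trim33-deficient bodies, against 319, 418 and 356 CPM in control bodies (log2 ratio -0.28 ± 0.10 SE, adjusted p = 0.0425). Control replicate 2 held the highest value of Bub1, and 10 of 22 alternatives, leaving out that library among them, ended the call. Replicate 2 was also the highest control library for Bub1 on day 2, at 414 CPM against 314 and 331 CPM in replicates 1 and 3.

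Ube2c, a ubiquitin-conjugating enzyme of the anaphase-promoting complex, was further below control on day 2 than on day 2.5. It had 168, 166 and 162 CPM in Trim33-deficient bodies, against 202, 188 and 198 CPM in control bodies on day 2 (log2 ratio -0.25 ± 0.04 SE, adjusted p = 0.00351). On day 2.5 the gap was narrower, with 157, 153 and 158 CPM in Trim33-deficient bodies, against 169, 166 and 175 CPM in control bodies (log2 ratio -0.12 ± 0.04 SE, adjusted p = 0.0362). The difference between the days did not pass (interaction 0.12 ± 0.06, adjusted p = 0.266). The day 2 call was kept under all 22 alternatives run, and 8 of 22 ended the day 2.5 call. Cdc20, an activator of the same complex, did not pass on either day, and its interval on day 2.5 was -0.10 to 0.10.

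Of the genes of chromosome structure and motors, Top2a, the topoisomerase that untangles sister chromatids, fell on both days. It had 1243, 1259.5 and 1257 CPM in Trim33-deficient bodies, against 1369, 1489 and 1441 CPM in control bodies on day 2 (log2 ratio -0.19 ± 0.05 SE, adjusted p = 0.0181). The values of Top2a on day 2.5 were 1032, 1033 and 1064 CPM in Trim33-deficient bodies, against 1232, 1288 and 1184 CPM in control bodies (log2 ratio -0.24 ± 0.05 SE, adjusted p = 0.000663). Both days were free of overlap. Cenpe, a motor of the kinetochore, rose instead. It had 190.5, 181 and 186 CPM in Trim33-deficient bodies, against 192, 182 and 192 CPM in control bodies on day 2, with overlap (log2 ratio -0.02 ± 0.06 SE, adjusted p = 0.839), and 215, 221 and 220.2 CPM in Trim33-deficient bodies, against 193, 186 and 162 CPM in control bodies on day 2.5 (log2 ratio 0.28 ± 0.06 SE, adjusted p = 0.00112). Mki67, the proliferation marker, Kif11, a spindle motor, and Cenpf, a kinetochore protein, did not pass on either day, with log2 fold changes of -0.09 to 0.07.

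The set list was drawn so that S-phase could be compared with mitosis genes. In number, 11 of 25 S-phase members fell on day 2 and 5 of 18 mitosis members, and on day 2.5 it was 19 of 25 S-phase members and 11 of 18 mitosis members, with 1 riser in mitosis. The median log2 fold change of the S-phase members was -0.16 on day 2 and -0.26 on day 2.5, and that of the mitosis members -0.10 on day 2 and -0.19 on day 2.5. The 9 members of G1/S control, with 3 and then 5 falls and 1 rise, had medians of -0.06 on day 2 and -0.13 on day 2.5. Beside these counts, 3.90% of all genes tested fell and 5.94% rose on day 2, and 20.7% fell and 22.0% rose on day 2.5.

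Averaged in each library, the S-phase members stood at -0.036, 0.010 and -0.012 in Trim33-deficient bodies on day 2, against 0.132, 0.169 and 0.156 in control bodies, as mean log2 CPM minus the mean of all 12 libraries. On day 2.5 the same average was -0.225, -0.183 and -0.168 in Trim33-deficient bodies, against 0.046, 0.028 and 0.082 in control bodies. The genotypes did not overlap on either day. For the mitosis members the averages were -0.029, -0.023 and -0.0065 in Trim33-deficient bodies on day 2, against 0.062, 0.094 and 0.059 in control bodies. By day 2.5 the mitosis averages were -0.132, -0.108 and -0.053 in Trim33-deficient bodies, against 0.026, 0.079 and 0.033 in control bodies.

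The S-phase average minus the mitosis average was -0.0067, 0.033 and -0.0053 in Trim33-deficient bodies on day 2, against 0.071, 0.075 and 0.097 in control bodies, a difference of -0.074 between the group means. On day 2.5 it was -0.093, -0.074 and -0.115 in Trim33-deficient bodies, against 0.020, -0.051 and 0.049 in control bodies, a difference of -0.100. The S-phase members were thus further below control than the mitosis members on both days, with no overlap of libraries. Control replicate 2 of day 2.5, the library rich in Rn45s, came nearest to the Trim33-deficient libraries. These are averages over chosen genes and carry no test. They turn on the way the genes are summarised. The difference of medians of absolute levels was 0.157 on day 2 and 0.128 on day 2.5. In every library that S-phase median was the level of Cdt1, the middle gene by CPM, whatever the other S-phase members did. Cdt1 overlapped between the genotypes on day 2 and lay above control on day 2.5. The difference of medians of each gene's deviation from its own mean, a summary added after seeing the data, was -0.075 on day 2 and -0.071 on day 2.5.

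**Figure D5:**
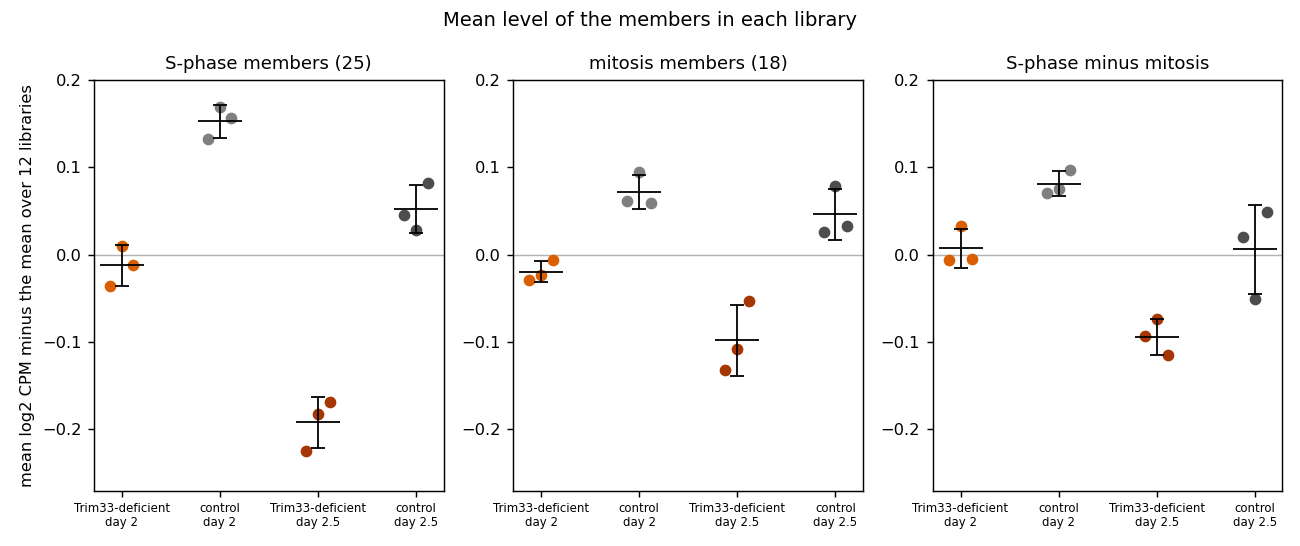
Points are libraries, and bars are the mean ± SD of 3 libraries. The panels give the mean log2 CPM of 25 S-phase members, of 18 mitosis members and the S-phase minus the mitosis value, each minus its mean over 12 libraries. In the last panel Trim33-deficient libraries of day 2.5 lie at -0.115 to -0.074 and control libraries of that day at -0.051 to 0.049.

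Between the days, members that passed fell in both genotypes, Cenpe excepted. The comparisons of the days use the same libraries as those of the genotypes and are no separate evidence. In Trim33-deficient bodies 21 members were lower on day 2.5 than on day 2 and 1 was higher, while 6.93% of all genes fell and 9.09% rose. Of the 21, 14 were S-phase, 3 G1/S control and 4 mitosis genes. Without Trim33-deficient day 2 replicate 2, 12 fell and 0 rose, without Trim33-deficient day 2.5 replicate 1, 12 fell, and without control day 2 replicate 2, 2 rose. In control bodies 11 members fell, 8 of them S-phase, 1 of G1/S control and 2 of mitosis, while 7.91% of all genes fell and 8.20% rose. No member rose in control bodies, with 1 above at an unadjusted p under 0.05 and 0 in DESeq2. Without control day 2 replicate 1 or control day 2.5 replicate 2, 1 rose. The number that fell was 5 without control day 2 replicate 3 or control day 2.5 replicate 3, 7 without control day 2.5 replicate 1 and 6 without control day 2.5 replicate 2.

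In Trim33-deficient bodies the largest fall over time was that of Tk1, at 15.7, 14.3 and 15.4 CPM on day 2.5 against 22.2, 23.7 and 22.8 CPM on day 2 (log2 ratio -0.60 ± 0.09 SE, adjusted p = 0.000272). Ccne1 came next, at 162, 159 and 180.1 CPM on day 2.5 against 203, 220.0 and 232 CPM on day 2 (log2 ratio -0.39 ± 0.08 SE, adjusted p = 0.00779). Neither showed an overlap between the days. Pold1 was at 211, 219 and 235 CPM on day 2.5 against 279, 271 and 269.9 CPM on day 2 (log2 ratio -0.30 ± 0.05 SE, adjusted p = 0.00119). Cdk2 was at 99.6, 103 and 96.5 CPM on day 2.5 against 115, 122 and 112 CPM on day 2 (log2 ratio -0.22 ± 0.05 SE, adjusted p = 0.00632). Cdc25a was at 164, 173 and 177 CPM on day 2.5 against 202, 199 and 195 CPM on day 2 (log2 ratio -0.21 ± 0.05 SE, adjusted p = 0.00702). These last 3 genes had passed between the genotypes on day 2.5 and not on day 2. Mcm10 was at 197, 206 and 205 CPM on day 2.5 against 235, 234 and 223 CPM on day 2 (log2 ratio -0.19 ± 0.04 SE, adjusted p = 0.0104). Lig1, whose values of both days are given above, fell as well (log2 ratio -0.26 ± 0.05 SE, adjusted p = 0.00406). The other 5 of the 12 smallest adjusted p-values belonged to Mcm2, Mcm3, Mcm7, Top2a and Plk1, which fell by 0.20 to 0.26 on the log2 scale. Cenpe was the riser, at 215, 221 and 220.2 CPM on day 2.5 against 190.5, 181 and 186 CPM on day 2 (log2 ratio 0.24 ± 0.06 SE, adjusted p = 0.011). The median over all 52 members was -0.13 on the log2 scale, against -0.0044 for all genes tested.

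In control bodies the largest fall over time was that of Ccnd3, at 66.6, 75.3 and 68.8 CPM on day 2.5 against 88.7, 95.04 and 96.1 CPM on day 2 (log2 ratio -0.41 ± 0.08 SE, adjusted p = 0.00229). The same cyclin did not pass over time in Trim33-deficient bodies (log2 ratio -0.14 ± 0.08 SE, adjusted p = 0.235). Cdt1 was at 175, 184 and 181 CPM on day 2.5 against 199, 224 and 217 CPM on day 2 in control bodies (log2 ratio -0.25 ± 0.05 SE, adjusted p = 0.00407), and it fell in Trim33-deficient bodies too (log2 ratio -0.19 ± 0.05 SE, adjusted p = 0.0169). For neither gene did the control libraries of the days overlap. Pole was at 225, 218 and 218 CPM on day 2.5 against 244, 242 and 255 CPM on day 2 in control bodies (log2 ratio -0.16 ± 0.04 SE, adjusted p = 0.0148). Pcna was at 137, 135 and 143 CPM on day 2.5 against 159, 152 and 159.6 CPM on day 2 in control bodies (log2 ratio -0.18 ± 0.06 SE, adjusted p = 0.0378). Cdt1, Pole and Pcna did not pass between the genotypes on either day. Mcm10 was at 225, 212 and 218 CPM on day 2.5 against 244, 238 and 254 CPM on day 2 in control bodies (log2 ratio -0.17 ± 0.04 SE, adjusted p = 0.0178). Pold1 was at 252, 272 and 264 CPM on day 2.5 against 295, 320.2 and 291 CPM on day 2 in control bodies (log2 ratio -0.20 ± 0.05 SE, adjusted p = 0.0158). The other 5 that fell were Tk1, Top2a, Ube2c, Rrm2 and Mcm2, by 0.13 to 0.27 on the log2 scale. Of the 11, Ccnd3, Cdt1, Top2a and Ube2c passed under all 22 alternatives run. Mcm2 lost its call under 15 of 22, Tk1 and Pcna under 11, Rrm2 under 6, Mcm10 under 5, and Pold1 and Pole under 3. The median over the 52 members was -0.06, against -0.0025 for all genes tested. The S-phase minus mitosis average moved by -0.101 over time in Trim33-deficient bodies and by -0.075 in control bodies.

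Whether the genotype difference itself changed between the days was tested by the interaction of genotype and day. Of the 52 members only Cenpe passed, with a difference of 0.30 ± 0.08 on the log2 scale between day 2.5 and day 2 (adjusted p = 0.0487, quasi-likelihood test of edgeR, Benjamini-Hochberg adjusted), where 2.77% of all genes passed upward and 1.24% downward. None passed downward, with 12 members below 0 at an unadjusted p under 0.05 and 0 in DESeq2. In either direction 14 of the 52 members had such an unadjusted p, beside 3003 of all 14356 genes tested. The nearest of the 12 members were Plk1 (-0.24 ± 0.08, adjusted p = 0.0932), Foxm1 (-0.22 ± 0.08, adjusted p = 0.111) and Lig1 (-0.21 ± 0.07, adjusted p = 0.112). For Tk1 the difference between the days was -0.33 ± 0.12 (adjusted p = 0.13), and for Ccnd3 it was 0.27 ± 0.11 (adjusted p = 0.164). In the main test a change of the genotype difference between the days thus passed for Cenpe alone, close to the threshold. Of the 51 members that did not pass, 8 did so under at least 1 alternative, so they cannot be called unlike Cenpe in this. The Cenpe call was lost under 10 of 21 alternatives, with adjusted p from 0.00709 to 0.143.

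Other genes of the same pathways were taken from lists chosen with earlier results known. Of 40 other replication genes, 11 fell and 0 rose on day 2 (22 had an unadjusted p under 0.05 in either direction), and 24 fell and 1 rose on day 2.5, with medians of -0.12 on day 2 and -0.22 on day 2.5 on the log2 scale. Of all genes tested, 3.90% fell and 5.94% rose on day 2, and 20.7% fell and 22.0% rose on day 2.5. On day 2, 3547 of the 14356 genes tested had an unadjusted p under 0.05 in either direction. These figures stand beside the lists that follow too. Dut, which clears dUTP from the nucleotide pool, was at 242 ± 8.52 CPM in Trim33-deficient bodies and 343 ± 14.6 CPM in control bodies on day 2.5 (SD, n = 3 each; log2 ratio -0.50 ± 0.05 SE, adjusted p = 2.76e-06), and it also fell on day 2 (log2 ratio -0.34 ± 0.05 SE, adjusted p = 0.000993). Pold3, an accessory subunit of the lagging-strand polymerase, was at 138 ± 7.02 CPM in Trim33-deficient bodies and 198 ± 10.4 CPM in control bodies (SD, n = 3 each; log2 ratio -0.52 ± 0.05 SE, adjusted p = 2.67e-06) and fell on day 2 too (log2 ratio -0.23 ± 0.05 SE, adjusted p = 0.0135). Slbp, which binds histone messages, fell on day 2 (log2 ratio -0.39 ± 0.07 SE, adjusted p = 0.00556), as did Dna2, a nuclease of flap processing (log2 ratio -0.26 ± 0.06 SE, adjusted p = 0.0132). On day 2.5 Orc3 (log2 ratio -0.43 ± 0.06 SE, adjusted p = 3.39e-05), a subunit of the origin complex, and Wdhd1 (log2 ratio -0.37 ± 0.05 SE, adjusted p = 3.92e-05), which ties the helicase to the first polymerase, fell.

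Of 48 other mitosis genes, 6 fell and 1 rose on day 2, and 18 fell and 6 rose on day 2.5, with medians of -0.07 on day 2 and -0.13 on day 2.5. The share of risers lay below the 5.94% of all genes on day 2 and below the 22.0% on day 2.5. The riser of day 2 was Ect2, an exchange factor of cytokinesis, at 346 ± 18.4 CPM in Trim33-deficient bodies and 286 ± 5.69 CPM in control bodies (SD, n = 3 each; log2 ratio 0.27 ± 0.05 SE, adjusted p = 0.00367). Kif20a, a motor of cytokinesis, fell on that day (log2 ratio -0.24 ± 0.05 SE, adjusted p = 0.00944), with Cdca8, a partner of Aurkb (log2 ratio -0.24 ± 0.05 SE, adjusted p = 0.0127), and Spc24, a kinetochore protein (log2 ratio -0.27 ± 0.07 SE, adjusted p = 0.0194). On day 2.5 Ckap2, a spindle protein, rose, at 159 ± 8.14 CPM in Trim33-deficient bodies and 114 ± 6.96 CPM in control bodies (log2 ratio 0.47 ± 0.06 SE, adjusted p = 3.08e-05). Cdca8 fell again (log2 ratio -0.39 ± 0.05 SE, adjusted p = 4.39e-05), as did the condensin subunits Ncapd2 (log2 ratio -0.37 ± 0.05 SE, adjusted p = 4.76e-05) and Ncapg (log2 ratio -0.30 ± 0.04 SE, adjusted p = 8.51e-05).

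The 18 other regulators of G1/S included the retinoblastoma family, which holds E2F factors in check. Of them 1 rose and 0 fell on day 2, with 7 at an unadjusted p under 0.05 in either direction, and 2 rose and 6 fell on day 2.5. The share that rose was near the 5.94% of all genes on day 2 and below the 22.0% on day 2.5. The riser of day 2 was Rb1 itself, at 40.2 ± 2.31 CPM in Trim33-deficient bodies and 30.8 ± 2.87 CPM in control bodies (SD, n = 3 each; log2 ratio 0.38 ± 0.08 SE, adjusted p = 0.0121). On day 2.5 Rb1 was at 58.0 ± 3.33 CPM in Trim33-deficient bodies and 30.1 ± 2.38 CPM in control bodies (log2 ratio 0.94 ± 0.08 SE, adjusted p = 7.12e-07), and its rise was larger than on day 2 (interaction 0.56 ± 0.12, adjusted p = 0.0182), a call that 5 of 21 alternatives ended. Its relative Rbl2 rose on day 2.5, at 13.0 ± 1.67 CPM in Trim33-deficient bodies and 6.66 ± 0.373 CPM in control bodies (log2 ratio 0.96 ± 0.12 SE, adjusted p = 1.8e-05). The other relative, Rbl1, did not rise on day 2.5, and its libraries overlapped. Rbl1 had 28.7, 28.3 and 29.3 CPM in Trim33-deficient bodies, against 26.3, 33.1 and 29.97 CPM in control bodies on that day. The interaction also passed for Rbl2 (0.67 ± 0.17, adjusted p = 0.0415), for Pold3 (-0.29 ± 0.08, adjusted p = 0.0423) and for Ckap2 (0.33 ± 0.09, adjusted p = 0.0487), with 10 or 11 of 21 alternatives ending each call. E2f4, a repressing E2F, fell on day 2.5 (log2 ratio -0.30 ± 0.05 SE, adjusted p = 0.000114), and so did Skp2, which marks kinase inhibitors for breakdown (log2 ratio -0.29 ± 0.06 SE, adjusted p = 0.000829).

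The promoter matches were set beside the changes. Of the 11 S-phase genes with an E2F-type match in a promoter, 5 fell on day 2 and 10 on day 2.5, with medians of -0.17 and -0.29 on the log2 scale. Of the 10 S-phase genes with a promoter but no match, 4 fell on day 2 and 6 on day 2.5, with medians of -0.13 and -0.16. Cdt1 was the gene with a match that did not fall on day 2.5, and Tk1, the gene that fell most, had none of these letters in its window. Of the 11 mitosis genes with a CHR-type match, 4 fell on day 2 and 6 on day 2.5, with medians of -0.13 and -0.12. The 4 without one were Birc5, Bub1, Ccnb1 and Cenpe, of which 0 fell on day 2 and 2 fell and 1 rose on day 2.5. Their medians were -0.07 on day 2 and -0.15 on day 2.5, the latter further below 0 than that of the genes with a match. Of all genes tested, 3.90% fell and 5.94% rose on day 2, and 20.7% fell and 22.0% rose on day 2.5. Bub1, one of the genes without a CHR-type match that fell on day 2.5, lost its call under 10 of 22 alternatives. This split was made after the changes were known and has no test.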

How the data were processed

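Per the submitters' processing notes, which name STAR, HTSeq, DESeq and the mouse build mm9, the authors deposited raw counts of reads per gene, 1 file per library. For versions, annotation, strand setting and multi-mapping reads the sources used here give nothing, so members with near-identical copies or antisense neighbours are uncertain. The 5 closing rows that name no gene were left out; reads in no annotated feature made up 55.9 to 60.5% of each library. In Trim33-deficient day 2.5 replicate 1, 27 gene names turned into dates were restored from the same rows of the other files.

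Counts were tested with edgeR 4.0.16 (R 4.3.3): filterByExpr, TMM factors and robust quasi-likelihood models with a mean for each of 4 groups, over 12 libraries (8 residual degrees of freedom), Benjamini-Hochberg adjustment over 14356 genes and a threshold of 0.05. Each SE is the size of the log2 fold change divided by the root of F. A count of 3 equals 0.179 to 0.318 CPM, counting error only. No replicate libraries were identical. Alternatives were other size factors and filters, DESeq2 1.42.0, the compared libraries alone, a replicate block and leaving out libraries. Scripts were tested on simulated counts.

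Members, roles, lists and alternatives were chosen with earlier results of these data known. Members named were, per comparison, up to 12 with the smallest adjusted p, the leading one of each role and any past the interaction test, and up to 4 genes per list. The rest were added after their values were seen.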

Additional observations from a re-analysis of the deposited data

Results flagged for a closer look

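Cenpe stood out because its genotype difference differed between the days: the difference on day 2.5 exceeded that on day 2 by 0.30 ± 0.08 on the log2 scale (adjusted p = 0.0487 for the interaction, quasi-likelihood test of edgeR, Benjamini-Hochberg adjusted). The 3 Trim33-deficient libraries of day 2.5 (215, 221 and 220.2 CPM) lay above the 3 control libraries of that day (193, 186 and 162 CPM), of which replicate 3 was the lowest. On day 2 the groups overlapped. The result was lost under 10 of 21 alternatives, with adjusted p from 0.00709 to 0.143: RLE size factors, and leaving out any 1 library except Trim33-deficient day 2 replicate 1, control day 2 replicate 2 and control day 2.5 replicate 1.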

How the results depend on the processing

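The 35 members that fell on day 2.5 numbered 26 to 37 under every alternative run, and no called member reversed. Calls kept under all alternatives numbered 8 of 19 members on day 2, 27 of 37 on day 2.5, 10 of 22 over time in Trim33-deficient bodies, 4 of 11 over time in control bodies and 0 of 1 for the interaction. Leaving out 1 library at a time gave 8 to 21 members lower and 514 to 1617 genes called on day 2. Over time it gave 0 to 2 members higher, 12 to 23 lower and 1101 to 2780 genes in Trim33-deficient bodies, and 0 to 1 higher, 5 to 12 lower and 1235 to 2393 genes in control bodies. For the interaction it gave 0 to 2 members higher, 0 to 1 lower and 119 to 1217 genes. A lone missing library leaves 2 in its group, whose spread is pooled with the other groups.

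Without the 2 libraries rich in Rn45s, 814 genes were called on day 2, 2 members were higher over time in Trim33-deficient bodies, 1 was higher and 6 were lower over time in control bodies, and 2 passed upward in the interaction. Without those and control day 2 replicate 2, a library left out on earlier results, 2 members were higher and 3741 genes called over time in Trim33-deficient bodies, 1 member was higher over time in control bodies, and 2 passed upward, 5 downward and 1967 genes in all in the interaction. With only the libraries compared, 2 members were higher over time in Trim33-deficient bodies, and 4 were lower and 1384 genes called over time in control bodies. With RLE size factors 0 members passed upward in the interaction. The cause of these changes was not tested.

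With the replicate number as a block, 20 members were lower on day 2 and 35 on day 2.5, 2 were higher over time in Trim33-deficient bodies and 1 in control bodies, 1 passed downward in the interaction, and 1169 genes did so in either direction. Same-numbered libraries had correlations of their deviations of -0.0788 to 0.172 between the genotypes on day 2 and of -0.033 to -0.00944 on day 2.5. Over the days they were -0.0181 to 0.182 in Trim33-deficient bodies and 0.032 to 0.451 in control bodies, where replicates 1 and 2 reached 0.365 and 0.451. Of 6 pairs over the days 4 correlated best with their own number, a hint from the data, but in no comparison did every pair, so the numbers were not taken to pair the libraries. Among the members, Trim33-deficient replicate 1 was the lowest of its group on both days in 19 and control replicate 2 in 17. Control replicate 2 was also the highest on both days in 11. Control replicate 1 was the lowest in 14 and the highest in 10. The same shares over all genes tested were not worked out.

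The S-phase minus mitosis difference between genotypes turned to 0.157 on day 2 and 0.128 on day 2.5 with medians of levels, and those over time moved to -0.227 in Trim33-deficient bodies and -0.198 in control bodies. The S-phase median of levels was that of Cdt1 in every library, so it does not describe the S-phase members as a set. Medians of deviations, added after seeing the data, gave -0.075, -0.071, -0.087 and -0.091 in the same order. The smallest difference called on day 2.5 was 8.03%, and with 3 libraries a group, members with smaller ones cannot be called unchanged.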
